A study of Arabidopsis thaliana with 8 samples.

Results

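The genes described here are the cytochrome P450 genes of Arabidopsis thaliana that could be followed in nectaries, the glands at the base of the flower that secrete nectar. Members were chosen by name alone. A probe set, the group of short oligonucleotides that reads one transcript on the Affymetrix ATH1 array, was taken where the platform annotation or the study's tables gave it exactly 1 gene, with a symbol of CYP, a family number, a letter and a member number. This gave 28 members of 22746 probe sets tested, each a different gene, against 225 P450 genes that carry such a symbol in the reference table of the TAIR10.1 assembly. The few other P450 probe sets that could be identified, under another symbol or shared by several genes, are described beside the members, and the remaining P450 genes were not analysed here.

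The study collected nectaries from wild type Columbia-0 plants 30 to 35 days old, 4 to 8 h after dawn, and hybridized each pool of tissue to 1 array. Immature lateral nectaries (ILN, pre-secretory, flower stages 11 to 12) and mature lateral nectaries (MLN, secretory, stages 14 to 15) were represented by 3 arrays each, and mature median nectaries (MMN, stages 14 to 15, which secrete little nectar) by 2. A pool held 250 to 300 nectaries by the sample records, and 500 ng of RNA was labelled for lateral but 250 ng for median nectaries. MMN and ILN differ both in position in the flower and in stage, and these cannot be told apart in that comparison.

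P450s are heme enzymes, most of them held in the membrane of the endoplasmic reticulum, that use electrons passed on by a reductase to insert oxygen into small molecules. In plants they shape lignin precursors, pigments, hormones, defence compounds and scents, and the family is grouped by sequence into numbered families and lettered subfamilies, and these into clans. Flowers of Arabidopsis emit terpenes made by terpene synthases, and certain P450s oxidize these products.

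Values are the deposited signals, a brightness on a linear scale with a median of 100 on every array. Because probe sets differ in how brightly they report a transcript, signals are compared between arrays for one gene and not between genes. The number of arrays limits the precision. Differences are on the log2 scale, from a limma fit to all 8 arrays, and a gene was called where its p, adjusted over all 22746 probe sets by the Benjamini-Hochberg method, was under 0.05. Replicate arrays correlated in their log2 signals over the whole array (a description over probe sets) at 0.963 to 0.988 for ILN, 0.976 to 0.982 for MLN and 0.988 for MMN. The median log2 difference of all probe sets was 0.17 for MLN minus ILN, 0.11 for MMN minus ILN and -0.03 for MMN minus MLN, and after a new quantile normalization 0.05, 0.01 and -0.03. The nectary markers CRC, SWEET9 and CWINV4 had signals of 8916 or more on every array and were not called in any comparison. CRC and CWINV4 were named only by the study's list of nectary-enriched genes, chosen with these arrays against other tissues. Their high signals therefore follow from how they were named, while SWEET9 was named by the platform annotation. Of 8 tapetum and young anther markers the 2 measured, A9 and AMS, lay between 19.1 and 31.9 on all arrays. The 1 of 4 pollen markers measured, At5g45880, ranged from 102 to 579 (579 on MMN 2) and was not called. The guard cell marker FAMA lay between 89.5 and 158 and was not called, and none of the ovule, phloem or mesophyll markers had a probe set that could be named.

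Of the 28 members 18 belong to the CYP71B subfamily, and 25 to clan 71, the largest plant clan. The other 3 stand in clans of a single family and are CYP97A3, CYP97B3 and CYP51G2. The platform annotation named 22 of them, and 6 were named only by the study's tables. CYP98A3, CYP97A3, CYP97B3 and CYP705A3 came from its lists of probe sets called present, and CYP81D1 only from its comparison of the nectary types. CYP706A3 came only from its list of nectary-enriched genes, which was chosen with these arrays against other tissues. A high signal of CYP706A3 therefore follows from how it was named. A biochemical or developmental role was listed for 8 members.

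CYP71B31, which hydroxylates the floral monoterpene alcohol linalool, showed the largest difference of all members. Its signal was 15.5, 21.4 and 18.0 on the ILN arrays, 1351, 1326 and 1026 on the MLN arrays, and 2593 and 2371 on the MMN arrays. The nectary types did not overlap, with ILN lowest and MMN highest. The 3 ILN values lay below the lower quartile of signals on their arrays, where background can make up part of a signal (its share was not estimated). The mean was 18.3 ± 2.95 (SD, n = 3) for ILN, 1235 ± 181 (SD, n = 3) for MLN and 2482 ± 157 (SD, n = 2) for MMN. MLN exceeded ILN by 6.08 on the log2 scale (standard error 0.20, limma adjusted p = 6.66e-08), and MMN exceeded ILN by 7.10 (standard error 0.22, limma adjusted p = 2.05e-08), or 137-fold. Both differences rest on ILN signals at that low level, so their exact size depends on it. Both calls held in each of 17 alternative settings of the fit. In these bulk pools, fewer cells that express a gene and less RNA of it per cell cannot be told apart. MMN also lay above MLN, 2.02-fold by geometric means, but this did not pass the test (log2 difference 1.02, limma adjusted p = 0.0786). It passed with array weights (0.97, limma adjusted p = 0.0109), in a fit of MMN and MLN alone (1.02, limma adjusted p = 0.0490) and without ILN 1 (1.02, limma adjusted p = 0.0355).

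CYP706A3, the other floral terpene oxidase measured, was bright on every array. Its signals were 5380, 7117 and 6284 in ILN, 7340, 6819 and 8882 in MLN, and 7460 and 7862 in MMN. ILN and MLN overlapped, and both MMN arrays lay above all ILN arrays and within the range of MLN. No difference was called, with 0.30 between MLN and ILN (95% interval -0.10 to 0.69, limma adjusted p = 0.250), 0.30 between MMN and ILN (-0.14 to 0.75, limma adjusted p = 0.344) and 0.0049 between MMN and MLN (-0.44 to 0.45, limma adjusted p = 0.998). The intervals leave out a 2-fold difference between any nectary types. Of the 5 P450 genes listed for oxidation of floral terpenes, these were the 2 with a member probe set. CYP71B31 was thus called in both comparisons with ILN, and CYP706A3 in none.

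CYP706A3 is the direct neighbour of the terpene synthase gene TPS11 (At5g44630) on chromosome 5, with no gene between them. TPS11, whose enzyme makes a mixture of sesquiterpenes, had signals of 13543, 15541 and 11462 in ILN, 11173, 16125 and 13364 in MLN, and 15873 and 14925 in MMN. Like CYP706A3 it was high on all arrays and not called in any comparison, with log2 differences of -0.00097, 0.20 and 0.20 in the same order. Of 5 terpene synthase genes of flowers listed, 2 had a probe set of their own and neither was called. Both were named by the platform annotation. They also stand in the study's nectary-enriched list, which was chosen with these arrays and so is no separate support for their high signals.

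**Figure D1:**
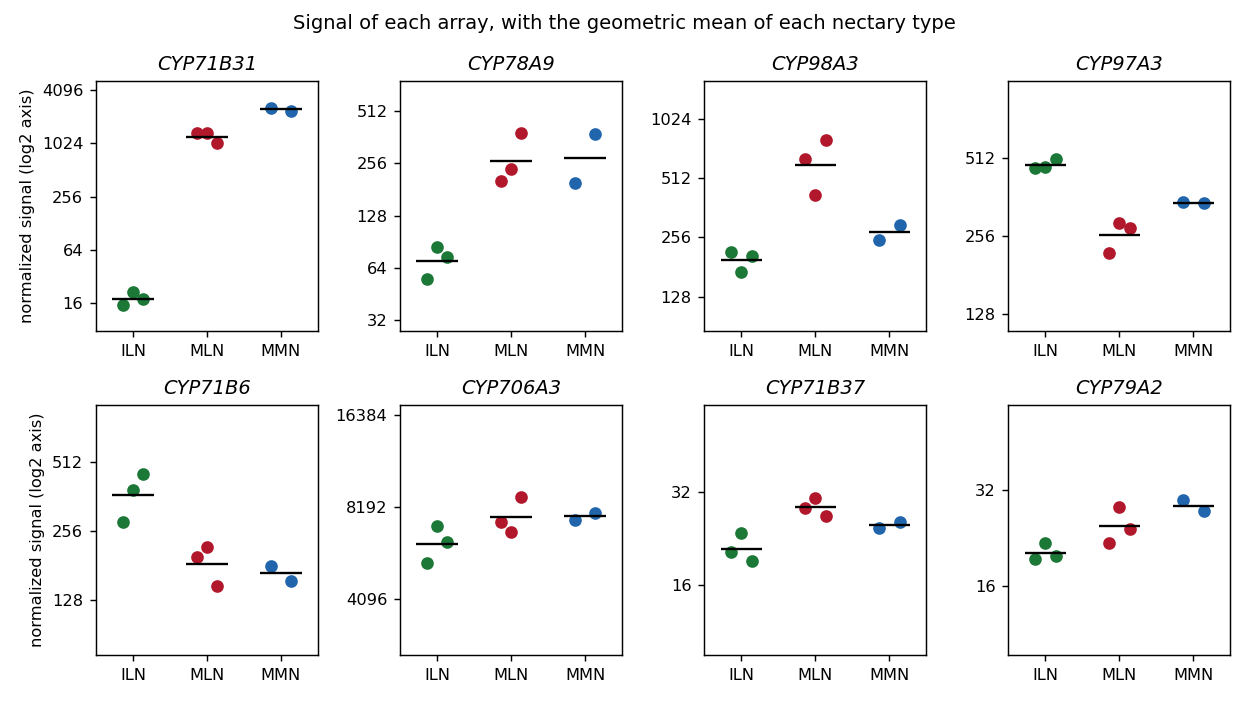
Normalized signal (log2 axis, different range in each panel) of 8 P450 genes on each array of immature lateral (ILN), mature lateral (MLN) and mature median (MMN) nectaries. Points are arrays and bars are geometric means. CYP71B31 rises from 15.5 to 21.4 in ILN to 1026 or more in both mature types, while CYP706A3 stays between 5380 and 8882.

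CYP98A3, the hydroxylase that turns coumaroyl esters into the caffeoyl esters of lignin synthesis, was higher in MLN. Its signals were 216, 171 and 205 in ILN, 641, 418 and 794 in MLN, and 249 and 296 in MMN. Every MLN array lay above every other array, and both MMN arrays above all ILN arrays. MLN exceeded ILN 3.04-fold (log2 difference 1.60, standard error 0.24, limma adjusted p = 7.28e-04). Neither the difference of 0.47 between MMN and ILN (limma adjusted p = 0.263) nor that of -1.14 between MMN and MLN (limma adjusted p = 0.110) passed the test. The latter passed with array weights (-1.17, limma adjusted p = 0.0114) and without MLN 2 (-1.39, limma adjusted p = 0.0410). CYP84A4, which acts in the synthesis of arabidopyrones from phenylpropanoids, ranged from 51.6 to 75.8 over all arrays and was not called (0.28 between MLN and ILN, limma adjusted p = 0.315).

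Of 13 listed phenylpropanoid enzymes other than P450s, 4 had a probe set of their own. All 4 were called higher in MLN and in MMN than in ILN, where 12.0% and 9.97% of all probe sets were. Of the 4, only HCT, which makes the coumaroyl esters that CYP98A3 acts on, was named without regard to its change. HCT signals were 1271, 717 and 660 in ILN, 2289, 1839 and 1968 in MLN, and 2950 and 1990 in MMN, and no ILN array reached any mature array. HCT exceeded its ILN level by 1.26 on the log2 scale in MLN and by 1.52 in MMN (limma adjusted p = 0.00484 and 0.00392). The other 3, the PAL genes PAL1, PAL2 and PAL4 of the first step of the pathway, carry a name here only because the study listed them for a large difference on these arrays, and they are no independent evidence. HCT was thus called in both mature types, CYP98A3 in MLN, and the difference between these patterns was not tested.

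CYP78A9, a gene of the CYP78A subfamily that promotes growth of fruits and seeds, was higher in both mature types. Its signals were 55.0, 83.9 and 73.9 in ILN, 202, 239 and 383 in MLN, and 198 and 379 in MMN. All mature arrays lay above all ILN arrays, while MLN and MMN overlapped and MMN 2 was 1.92 times MMN 1, the largest ratio between the MMN arrays among the members. The rise was 1.92 on the log2 scale in MLN (standard error 0.31, limma adjusted p = 0.00106) and 1.97 in MMN (standard error 0.34, limma adjusted p = 0.00238). Between MMN and MLN the difference was 0.05 (95% interval -0.70 to 0.80, limma adjusted p = 0.993), an interval too wide to show that the mature types are alike.

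CYP97A3, also known as LUT5, hydroxylates the beta ring of carotenes on the way to the leaf pigment lutein, and it was lower in MLN. Its signals were 466, 472 and 506 in ILN, 219, 287 and 274 in MLN, and 345 and 342 in MMN. The groups did not overlap, with MMN between the lateral types. MLN was 1.86-fold below ILN (log2 difference -0.90, standard error 0.18, limma adjusted p = 0.00400), a call that held in each of 17 alternative settings of the fit but lies under 2-fold. The difference between MMN and ILN, -0.48, was not called (limma adjusted p = 0.117), nor was that of 0.41 between MMN and MLN (limma adjusted p = 0.720). Its relative CYP97B3 had signals of 487, 504 and 481 in ILN, 573, 435 and 501 in MLN, and 588 and 511 in MMN. MLN and ILN overlapped, and no difference was called, with 0.03 between MLN and ILN (95% interval -0.36 to 0.41, limma adjusted p = 0.922) and a sign that turned after a new quantile normalization (-0.02).

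Of 6 listed carotenoid enzymes other than P450s, 2 had a probe set of their own. Both were called higher in MLN and in MMN than in ILN, where 12.0% and 9.97% of all probe sets were. LYC, a lycopene cyclase, had 312 to 399 in ILN, 789 to 806 in MLN and 573 to 760 in MMN, a log2 difference of 1.13 between MLN and ILN (limma adjusted p = 0.00126) and 0.85 between MMN and ILN (limma adjusted p = 0.0147). ZEP, which turns zeaxanthin into epoxides, had 1317 to 1950 in ILN, 4559 to 7578 in MLN and 4685 to 5098 in MMN, with differences of 1.91 and 1.62 (limma adjusted p = 1.50e-04 and 0.00109). Between MLN and ILN these genes moved in the opposite direction to CYP97A3, whose difference between MMN and ILN was not called. LYC was named by the platform annotation, and ZEP only by the study's comparison of the nectary types. LUT1, the P450 that hydroxylates the epsilon ring in the same pathway, is not a member, since its probe set also reads At3g53140. That probe set gave 855 to 1580 in ILN, 76.6 to 187 in MLN and 152 to 154 in MMN, and was listed by the study for its difference on these arrays, so that it is given as a description only.

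CYP71B6, which acts on the defence metabolite indole acetonitrile, was lower in both mature types. Its signals were 280, 388 and 457 in ILN, 197, 218 and 148 in MLN, and 181 and 156 in MMN. All ILN arrays lay above all mature arrays, and MLN and MMN overlapped. It fell by 0.99 on the log2 scale in MLN (standard error 0.23, limma adjusted p = 0.0102) and by 1.13 in MMN (standard error 0.26, limma adjusted p = 0.0110). The call for MMN was lost without MMN 1 (-1.23, limma adjusted p = 0.0537) or MMN 2 (-1.02, limma adjusted p = 0.112).

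CYP71B37 and CYP79A2 were called at low signals. CYP71B37, for which no function is given here, had 20.5, 23.5 and 19.1 in ILN, 28.4, 30.5 and 26.7 in MLN, and 24.4 and 25.5 in MMN, and the groups did not overlap. Its rise of 0.44 in MLN (limma adjusted p = 0.0335) was lost after a new quantile normalization (0.24, limma adjusted p = 0.186), without variances that follow the mean signal (0.44, limma adjusted p = 0.0608), and on leaving out MLN 1, MLN 2, ILN 1 or ILN 3 or either MMN array (0.37 to 0.44, limma adjusted p = 0.0505 to 0.113), in all in 10 of 16 alternative settings. CYP79A2, which makes the phenylalanine aldoxime of benzyl glucosinolate, had 19.4, 21.8 and 19.9 in ILN, 21.8, 28.4 and 24.2 in MLN, and 29.8 and 27.5 in MMN. Both MMN arrays lay above all ILN arrays, and MLN overlapped with MMN. Its rise of 0.49 in MMN over ILN (limma adjusted p = 0.0455) was lost with a new quantile normalization (0.35, limma adjusted p = 0.127), with the replicate number as a block (0.48, limma adjusted p = 0.0620) and on leaving out MLN 3, any ILN array or either MMN array (0.43 to 0.55, limma adjusted p = 0.0589 to 0.241), in all in 11 of 16. Both genes lay below the lower quartile of signals on all 8 arrays.

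**Figure D2:**
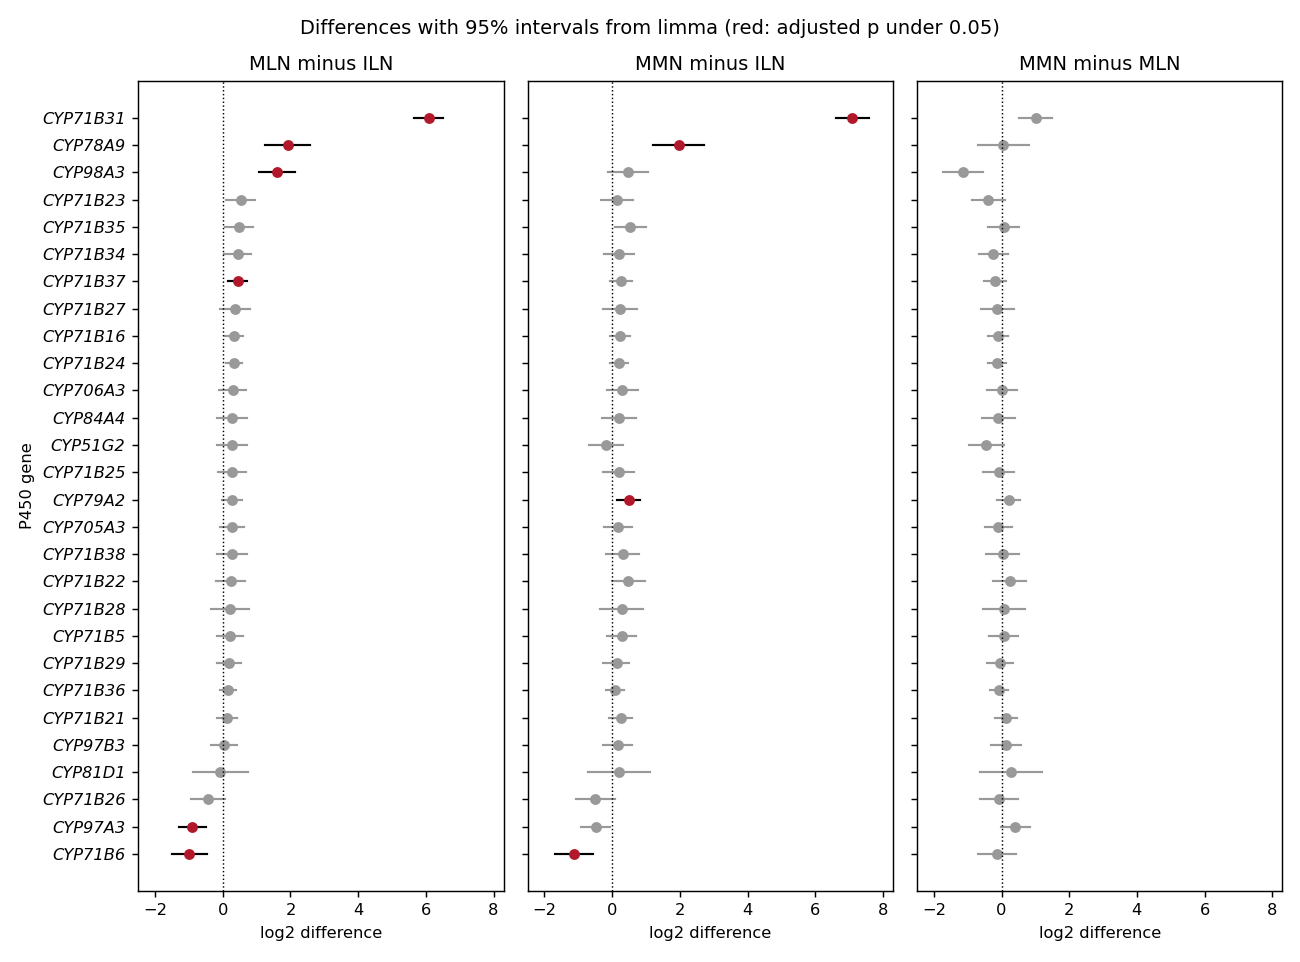
Log2 difference of each of the 28 P450 genes in the comparisons MLN minus ILN, MMN minus ILN and MMN minus MLN, with 95% intervals from limma. Red points with black lines passed an adjusted p of 0.05, which 6, 4 and 0 genes did. CYP71B31 stands apart at 6.08 and 7.10, and the members not called between MLN and ILN or elsewhere lie between -0.43 and 0.53 in the first panel.

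Counted over the family, 6 of 28 members, or 21.4%, were called between MLN and ILN, against 23.6% of all probe sets. CYP71B31, CYP78A9, CYP98A3 and CYP71B37 were higher in MLN, where 12.0% of all probe sets were, and CYP71B6 and CYP97A3 were higher in ILN, where 11.5% were. The 3 called with a change of at least 2-fold were CYP71B31, CYP78A9 and CYP98A3. The arrays of MLN and ILN did not overlap for 11 members, while this held for 41.0% of all probe sets. The share of these members called was thus near that of the array as a whole. Of the 22 members named by the platform annotation, 4 were called. The median log2 difference of the members was 0.28, beside 0.17 over all probe sets, and 24 of 28 members had a positive difference, as did 66.9% of all probe sets. After a new quantile normalization the medians were 0.10 and 0.05, and 21 members had a positive difference.

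Between MMN and ILN, a comparison that shares its ILN arrays with the one above, 4 of 28 members, or 14.3%, were called, against 18.8% of all probe sets. CYP71B31, CYP78A9 and CYP79A2 were higher in MMN (9.97% of all probe sets were) and CYP71B6 was higher in ILN (8.86% were). Without MMN 1 or MMN 2 the count fell to 2, CYP71B31 and CYP78A9. The arrays did not overlap for 14 members and for 50.8% of all probe sets. The median of the members was 0.22, beside 0.11 over all.

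Between MMN and MLN limma called 0 of 28 members, against 0.730% of all probe sets, with 0.572% higher in MMN and 0.158% higher in MLN. At an unadjusted p under 0.05 limma gave 2 members, CYP71B31, higher in MMN, and CYP98A3, higher in MLN, while the methods' t-test without adjustment gave CYP71B31 and CYP51G2. CYP71B31 and CYP98A3 were also the members with a difference of 2-fold or more between the mature types. The arrays of MMN and MLN did not overlap for 8 members and for 25.1% of all probe sets. The median half-width of the members' 95% intervals was 0.46, without adjustment over the probe sets. Even the differences of CYP71B31, 2.02-fold, and CYP98A3, 2.20-fold, were not called after adjustment. A difference of about 2-fold or less between the mature types could therefore go uncalled.

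**Figure D3:**
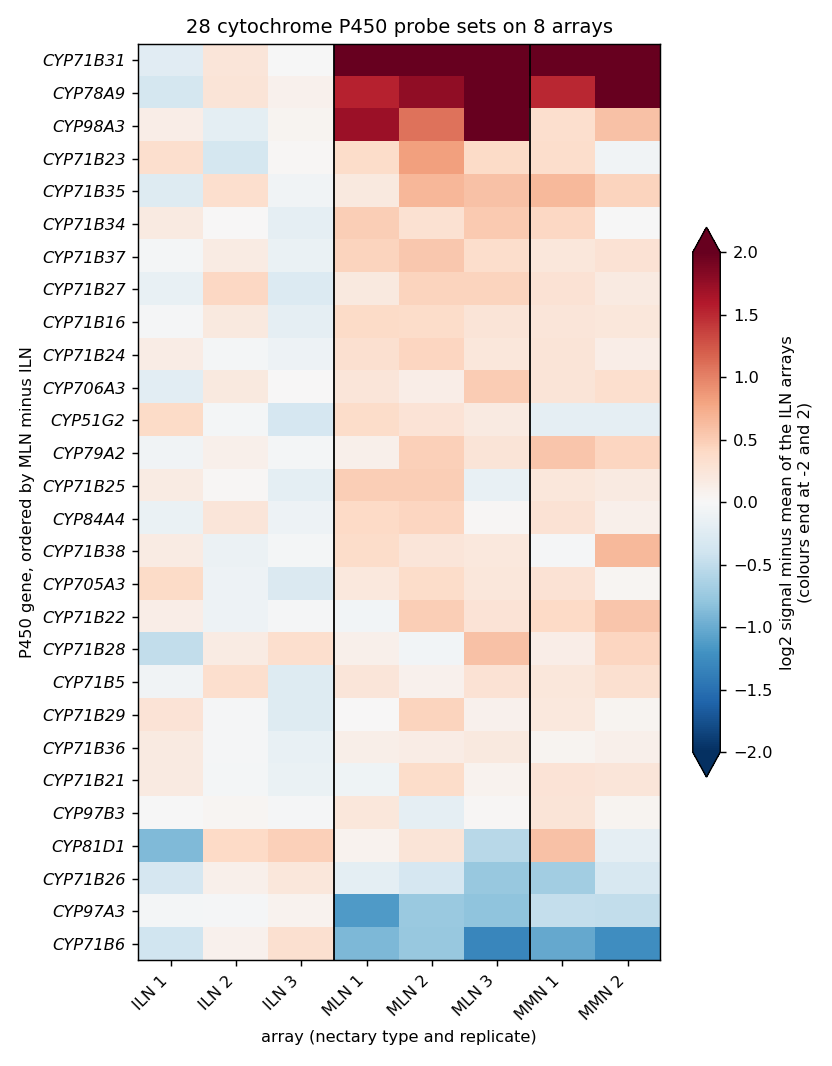
Log2 signal of the 28 P450 genes on 8 arrays, each row set against the mean of its ILN arrays, with rows ordered by MLN minus ILN. Colours end at -2 and 2, so CYP71B31, which lies at about 6 to 7 in the mature types, is shown at the end of the scale. Of the 28 rows, 24 have a higher mean in MLN than in ILN, most by a small amount.

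The remaining members, 21 in all, were not called in any comparison. Their differences between MLN and ILN ran from -0.43 for CYP71B26 to 0.53 for CYP71B23. CYP81D1 varied most between replicates, with 55.6, 135 and 143 in ILN, a ratio of 2.56 between the highest and lowest array, 107, 123 and 69.8 in MLN, and 153 and 90.7 in MMN. Of the 28 members 27 kept within 2-fold between ILN replicates, and all 28 did so between MLN and between MMN replicates, with a median ratio of highest to lowest array of 1.31, 1.32 and 1.11. CYP51G2, a relative of the sterol demethylase gene, had 41.2 to 68.0, and its MMN arrays, at 46.0 and 46.2, lay below all MLN arrays, at 59.4 to 67.4, without a call (-0.45, limma adjusted p = 0.750).

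Some members had low signals throughout. On all 8 arrays 11 members lay below the lower quartile of signals of the array, at 13.2 to 37.6, and 12 lay above it. The share of all probe sets that lay below it on all 8 arrays was not counted. The 11 were CYP79A2, CYP705A3 and 9 of the CYP71B subfamily. All 11 had a small positive difference from ILN in MLN (median 0.28) and also in MMN (median 0.20). Of all probe sets, bright and dim together, 66.9% and 61.9% had a positive difference. The lower quartile itself was 31.6 to 37.3 on the ILN arrays, 37.9 to 41.9 on the MLN arrays and 38.5 to 38.6 on the MMN arrays. Whether this bears on the small differences of the 11 was not tested. After a new quantile normalization the medians of the 11 were 0.10 and 0.09, 9 and 10 of them had a positive difference, and none of them was called in either comparison. With the replicate number as a block, CYP71B24 and CYP71B16 gained a call between MLN and ILN (0.32 and 0.34, limma adjusted p = 0.0402 and 0.0492, against 0.0506 and 0.0682 without it).

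Many CYP71B genes stand side by side in runs along the chromosomes. In one run on chromosome 3 the reference table lists 18 CYP71B genes, of which 11 were members, from CYP71B16 to CYP71B37. Their signals lay between 13.2 and 129, and between 13.2 and 70.9 without CYP71B26. Of these 11 only CYP71B37 was called, and only between MLN and ILN, where 23.6% of all probe sets were. Between MMN and ILN 18.8% of all probe sets were called, and between MMN and MLN 0.730%. On all 8 arrays 8 of the 11 lay below the lower quartile of signals. CYP71B26 had 87.7, 118 and 129 in ILN, 95.7, 87.3 and 65.4 in MLN, and 67.9 and 88.6 in MMN. It was lower on average in both mature types, with overlapping groups and no call (-0.43 and -0.51, limma adjusted p = 0.200 and 0.211). A probe set shared by CYP71B19 and CYP71B20, of the same run, is not a member and lay between 46.6 and 67.0.

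CYP71B31 lies elsewhere on chromosome 3, in a cluster of 4 CYP71B genes in the reference table. CYP71B5, the other member of that cluster and separated from CYP71B31 by 3 genes, had signals of 28.7, 38.1 and 25.4 in ILN, 35.9, 32.2 and 37.1 in MLN, and 35.6 and 37.9 in MMN. The groups overlapped and no difference was called (0.21 between MLN and ILN, limma adjusted p = 0.398, and 0.28 between MMN and ILN, limma adjusted p = 0.372). CYP71B30P, which lies in the same cluster and is not a member because its name ends in a letter, ranged from 22.1 to 42.9 and was not called. PAL2 lies 5 genes from CYP71B31 on the same chromosome, with signals of 86.9, 137 and 160 in ILN, 764, 1118 and 1212 in MLN, and 2530 and 2207 in MMN. Its arrays are ordered ILN, MLN, MMN without overlap, as are those of CYP71B31, while CYP71B5 between them is not. PAL2 was named only by the study's list of genes with a large difference on these arrays, so its values are a description.

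**Figure D4:**
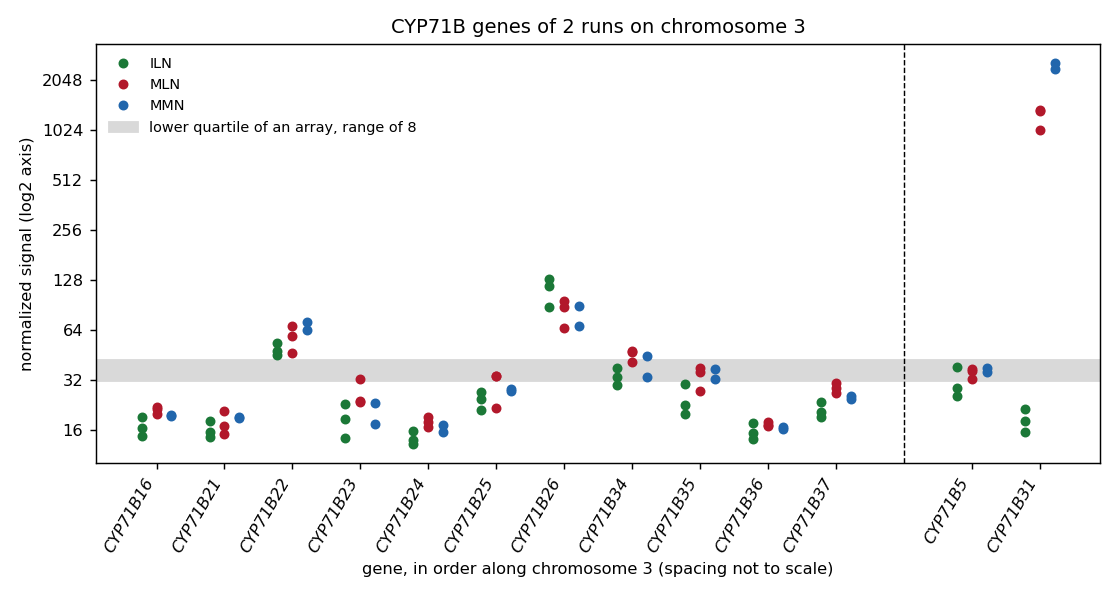
Normalized signal (log2 axis) of the CYP71B members in 2 runs on chromosome 3, in gene order and not to scale, with 1 point for each array of ILN, MLN and MMN. The grey band is the range of the lower quartile of signals over the 8 arrays, 31.6 to 41.9. The long run at left stays between 13.2 and 129 in all nectary types, and at right CYP71B5 stays near the band while CYP71B31 passes from below it in ILN to 1026 or more in MLN and MMN.

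On chromosome 1 a run of 5 CYP71B genes held 3 members. CYP71B28 had 162, 254 and 286 in ILN, 245, 219 and 340 in MLN, and 249 and 306 in MMN. CYP71B27 lay between 30.1 and 49.6 and CYP71B29 between 13.5 and 22.1. The groups of all 3 overlapped in the comparison of MLN with ILN, and none was called in any comparison (limma adjusted p = 0.215 to 0.553 between MLN and ILN).

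A few P450 genes are known by another symbol and so are not members. ROT3, a brassinosteroid enzyme of leaf growth, had 340, 445 and 268 in ILN, 253, 197 and 253 in MLN, and 182 and 134 in MMN, and was called lower in MMN than in ILN (-1.14, limma adjusted p = 0.0108). GA3, the kaurene oxidase of gibberellin synthesis, had 437, 436 and 564 in ILN, 612, 543 and 720 in MLN, and a mean of 826 ± 171 (SD, n = 2) in MMN, and was called higher in MMN than in ILN (0.78, limma adjusted p = 0.0316). BR6OX2, the last enzyme of brassinosteroid synthesis, and a probe set shared by CYP89A6, CYP89A5 and At2g12190 had been listed by the study for their differences on these arrays. BR6OX2 had a mean of 66.7 ± 13.6 (SD, n = 3) in ILN and 365 to 504 in the mature types, and the shared probe set 40.8 to 53.4 and 225 to 391. Of 6 brassinosteroid and sterol enzymes other than P450s, only DWF1 was measured. It had also been listed by the study for its difference, with 1214 to 2769 in ILN and 169 to 291 in the mature types. With ROT3, GA3 and BR6OX2 counted, 7 of 31 were called between MMN and ILN, against 18.8% of all probe sets. All 3 were named only by the study's tables, BR6OX2 for its difference on these arrays, so that this count is not independent of that choice. A further probe set, shared by CYP79C2 and At1g58265, lay between 15.6 and 38.5, below the lower quartile on all 8 arrays. It was not called in any comparison. None of the listed electron donors of P450s (8 genes) or cutin enzymes (7 genes) had a probe set that could be named here.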

How the data were processed

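RNA of 3 MLN, 3 ILN and 2 MMN pools was measured on ATH1 arrays. The deposited values are signal intensities on a linear scale, which the authors quantile normalized and summarized by RMA with Genedata's Expressionist Refiner, jointly with reference arrays of other tissues, before scaling each array to a median of 100 in its Analyst module. The release of either program was not given in the sources used here. With 2 or 3 arrays a group, their number limits the precision. Of 22810 probe sets 64 controls were left out. Log2 signals were fitted with limma 3.58.1 in R 4.3.3 (1 mean for each nectary type, all 8 arrays, variances following the mean signal), a procedure tested on simulated data, with Benjamini-Hochberg adjustment over all probe sets. Replicate pools came from different plants, by the study's methods. Tables and figures were made with Python 3.11.15, pandas 2.3.3 and matplotlib 3.10.9.

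Of the tested probe sets 14311 could be given 1 gene, 539 several and 7896 none. Symbols and gene order came from the TAIR10.1 table. Authors' comparison columns were not used, and sequences of the members were not used here.

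The members, lists and tests were chosen with earlier results of these data known. Named genes are called members whose arrays do not overlap (up to 10 rises and 10 falls for MLN against ILN, 5 and 5 for MMN against ILN, all for MMN against MLN), the 5 brightest, called members with a listed role, both floral terpene oxidases, and neighbours of these. The rest are named to account for every member.

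The replicate numbers were checked on how far each array lay from its group mean. These deviations correlated between MLN and ILN arrays of one number at 0.338, 0.241 and 0.211 and between arrays of unlike numbers at -0.300 to 0.0160. For the replicate block the numbers were taken to pair the arrays of all nectary types. The numbers of the MMN arrays were not checked in this way. Deviations within a group cancel out, so positive values at like numbers push the others down. The contrast is therefore weak ground, and the pairing is an assumption. For MLN and ILN the pairing comes from the data, and for MMN from the number alone, as the labels do not state what a number marks. Alternative settings were the methods' t-test run on linear signals with and without adjustment, the 12468 brightest probe sets, new quantile normalization, median centring, no variance trend, array weights, only the groups compared, the replicate block, each array left out, other rules of membership and a fold of at least 2.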

Additional observations from a re-analysis of the deposited data

How the results depend on the processing

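CYP71B31 in both comparisons with ILN and CYP97A3 between MLN and ILN kept their calls in each of 17 alternative settings of the fit. CYP98A3, CYP78A9 and CYP71B6 lost theirs between MLN and ILN in 1 of the 17, the methods' t-test with Benjamini-Hochberg adjustment (adjusted p = 0.117, 0.124 and 0.137), and between MMN and ILN that test also lost CYP78A9 and CYP71B6 (adjusted p = 0.205 and 0.211). Unadjusted, it called 4 members there too, but without CYP78A9 and CYP71B6 (0.0505 and 0.0539) and with CYP97A3 and CYP71B22 (0.00348 and 0.0184). Counts of called P450 genes moved as follows, against 6, 4 and 0. Between MLN and ILN the methods' t-test gave 10 unadjusted and 2 adjusted, a fold of at least 2 gave 3 (without CYP97A3, CYP71B6 and CYP71B37), and leaving out single arrays gave 5 to 8. Between MMN and ILN the adjusted t-test gave 1, members under any symbol or synonym 7, and leaving out single arrays 2 to 4. Between MMN and MLN the unadjusted t-test and array weights each gave 2, a fit of only the groups compared 1, and leaving out single arrays 0 to 1 (1 without MLN 2 or ILN 1). With the replicate block, which uses the pairing, 8, 3 and 0 were called, and it changed no other call than those of CYP79A2, CYP71B24 and CYP71B16. Among the named genes signs turned for 3 differences, none of them called. CYP97B3 between MLN and ILN became -0.02 with a new quantile normalization and ranged from -0.07 to 0.13 without single arrays, and CYP71B5, at 0.21, became -0.0046 with the normalization. Of the other members, the normalization turned CYP71B21 from 0.13 to -0.04, CYP71B36 from 0.15 to -0.00067 and CYP81D1 from -0.07 to 0.0031 between MLN and ILN, and CYP71B36 from 0.08 to -0.03 between MMN and ILN, none of them called. CYP706A3 between MMN and MLN became -0.0037 on linear signals and -0.05 with the normalization, and ranged from -0.08 to 0.11 without single arrays. The cause of these changes was not tested. How much of the signal is background was not estimated for the 11 members below the lower quartile of every array. Having only 2 MMN arrays limits the precision of both comparisons with MMN. The median half-width of the members' 95% intervals was 0.46 in both, and 0.41 between MLN and ILN.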
